A study of Mus musculus with 33 samples.

Results

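The nuclear genes for the subunits of the oxidative phosphorylation machinery were followed in cardiac myocytes of wild-type (WT) and Rbfox2 knockout (KO) mice. They were taken from a 3′-end RNA sequencing table as every gene whose symbol starts with Nduf, Sdh (Sdha to Sdhd), Uqcr, Cox4, Cox5, Cox6, Cox7, Cox8 or Atp5 and whose mean over all libraries was at least 10 RP10M, that is, reads scaled to 10000000 per library. Of 91 matching symbols 88 reached that level, among 10858 genes at that level and 22970 in the table. The 3 that did not were Cox6b2, Cox7b2 and Cox8c, of which Cox8c was listed at 0 in every library. By complex there were 36 members for complex I, 4 for complex II, 8 for complex III, 15 for complex IV and 15 for complex V. The symbols also took in 6 complex I assembly factors (Ndufaf1 to Ndufaf6) and 4 genes named after subunits (Ndufa4l2, Cox7a2l, Atp5s and Atp5sl), which were counted apart. Ndufa4, once assigned to complex I, was counted with complex IV, where it is now placed.

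Complexes I to IV form the respiratory chain of the inner mitochondrial membrane. They pass electrons from NADH and succinate to oxygen, and complexes I, III and IV pump protons, whose return through complex V, the ATP synthase, drives ATP synthesis. Heart muscle draws most of its ATP from this route, and its complex IV carries muscle isoforms of some small subunits (encoded by Cox6a2, Cox7a1 and Cox8b) in place of the widely expressed ones (Cox6a1, Cox7a2 and Cox8a). Rbfox2 binds RNA beside exons and thereby regulates their splicing, and the gene for the gamma subunit of the ATP synthase (Atp5c1) has a muscle-regulated exon long used to study such regulation.

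All groups were cardiac myocytes from hearts of Black Swiss background mice. The 3′-end data compared WT and Rbfox2 KO at 9 weeks of age. RASL-seq, which counts ligated probe pairs across splice junctions and so gives separate counts for the short isoform and for the long isoform of an event, compared them at 5, 9 and 18 weeks. The labels do not say how the knockout was made, and they give 1 sample per genotype and age, for which the tables hold 3 numbered columns. The chi-square per degree of freedom between columns of a group was 6.79 to 84.05, where repeat sequencing of a library would give about 1, so the columns were used as 3 libraries per group. Whether they came from separate animals is not stated, and p-values measure only the spread between these libraries, which may be technical.

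Depth was 4007538 to 9563483 recovered reads over the 6 libraries of the 3′-end data, and 1998027 to 12876511 counts over the 18 of RASL-seq. Rbfox2 stood at 322.8, 296.7 and 214.4 RP10M in the WT libraries and at 117.3, 81.7 and 66.4 in the KO libraries (log2 change -1.66, SE 0.30, adjusted p = 0.0233). All 14 ventricular myocyte markers listed were measured, with sums of 1184606 to 1442554 RP10M in WT against 1285106 to 1371096 in KO, and 2 of them passed the test as lower. The 6 measured atrial myocyte markers of 7 listed summed to 1220 to 2829 in WT and 18858 to 34747 in KO, 4 of them passed the test as higher, and Bmp10 was at 0 in every library. The 11 measured macrophage markers of 12 listed summed to 317 to 1034 in WT and 1063 to 1482 in KO. Of these, 8 had enough signal to be tested and none passed. The 10 measured smooth muscle and pericyte markers summed to 4116 to 4932 and 2457 to 3708 with 1 passing as lower. The 12 fibroblast markers summed to 932 to 6032 in WT and 4332 to 7016 in KO, and 1 of the 10 tested passed as higher. Of the 12 endothelial markers (3862 to 8488 and 4432 to 6116) and the 3 measured erythroid markers of 5 (3103 to 14577 and 3221 to 5686) none passed. WT library 3 held the highest WT sum of the fibroblast, endothelial, macrophage and erythroid lists. Fewer cells of a type and less RNA per cell cannot be told apart in such bulk samples.

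Upstream sequence is given for 2 isoform pairs, because isoform genes of 1 subunit can have unlike promoters. Of their genes only Cox7a1 passed the expression test given below. RefSeq (build GRCm38.p6) listed a window of 300 bases around a start site for 73 of the 88 members, all of which matched a RefSeq gene. The 250 bases before the start are given, on the gene's strand from 5′ to 3′, for the muscle gene Cox7a1 (chr7:30183921-30184170, plus strand) and its widely expressed partner Cox7a2 (chr9:79759854-79760103, minus strand), and for Atp5g2 (chr15:102671048-102671297, minus strand) and Atp5g3 (chr2:73911327-73911576, minus strand), 2 of the 3 genes that encode the c subunit of the ATP synthase. Capitals mark a match to the NRF1 motif (Atp5g2) or the ERR motif (Atp5g3).
Cox7a1: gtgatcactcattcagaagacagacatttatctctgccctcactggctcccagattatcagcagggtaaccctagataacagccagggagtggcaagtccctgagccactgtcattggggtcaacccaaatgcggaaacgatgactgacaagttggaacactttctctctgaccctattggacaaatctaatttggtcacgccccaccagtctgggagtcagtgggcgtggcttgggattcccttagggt
Cox7a2: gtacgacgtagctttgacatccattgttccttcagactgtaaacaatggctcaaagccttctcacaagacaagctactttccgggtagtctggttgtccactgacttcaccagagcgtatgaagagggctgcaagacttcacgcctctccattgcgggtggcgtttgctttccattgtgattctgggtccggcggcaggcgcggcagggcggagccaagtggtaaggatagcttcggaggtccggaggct
Atp5g2: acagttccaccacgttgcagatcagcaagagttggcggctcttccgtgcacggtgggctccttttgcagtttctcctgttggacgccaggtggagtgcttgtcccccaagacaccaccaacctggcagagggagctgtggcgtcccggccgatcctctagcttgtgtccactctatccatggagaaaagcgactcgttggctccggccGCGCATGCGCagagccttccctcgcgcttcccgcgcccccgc
Atp5g3: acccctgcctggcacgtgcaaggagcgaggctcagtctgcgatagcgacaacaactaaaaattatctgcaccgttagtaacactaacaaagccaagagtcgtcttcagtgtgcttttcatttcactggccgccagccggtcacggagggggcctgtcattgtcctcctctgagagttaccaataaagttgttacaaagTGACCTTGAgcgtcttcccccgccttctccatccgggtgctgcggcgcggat

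The letters searched, on both strands, were GCGCA, any base and GCGC in a row for NRF1, CCGGAAG for ETS factors such as GABP, TNAAGGTCA for ERR and AANATGGC for YY1. These factors are known regulators of respiratory chain genes. Over the whole windows of 300 bases, 20 of the 79 member windows (25.3%) held the NRF1 letters against 4.6% of all 32851 windows, 20 (25.3%) the YY1 letters against 6.05%, 17 (21.5%) the ETS letters against 8.86%, and 3 (3.8%) the ERR letters against 1.28%. Cox7a1 and Cox7a2 held none of the 4 motifs in the 250 bases shown. A match is a description of letters, and binding was not examined.

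Together the 88 members took 11.9%, 13.6% and 12.5% of the signal of the WT libraries and 11.2%, 12.6% and 12.3% of that of the KO libraries, so the totals of the genotypes overlapped. In the KO 1 of the 88 passed the test at an adjusted p under 0.05 (limma on log2(RP10M + 1), adjusted over all 10858 genes), the muscle isoform gene Cox7a1, which was lower. Of all genes tested 1.6% passed in either direction, 1.21% as higher and 0.396% as lower, so the count of members called lay near the background. At an unadjusted limma p under 0.05 there were 10 members lower and 3 higher of the 88. In either direction 1861 of all 10858 genes did so, and the share of members was not above that of all genes.

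**Figure D1:**
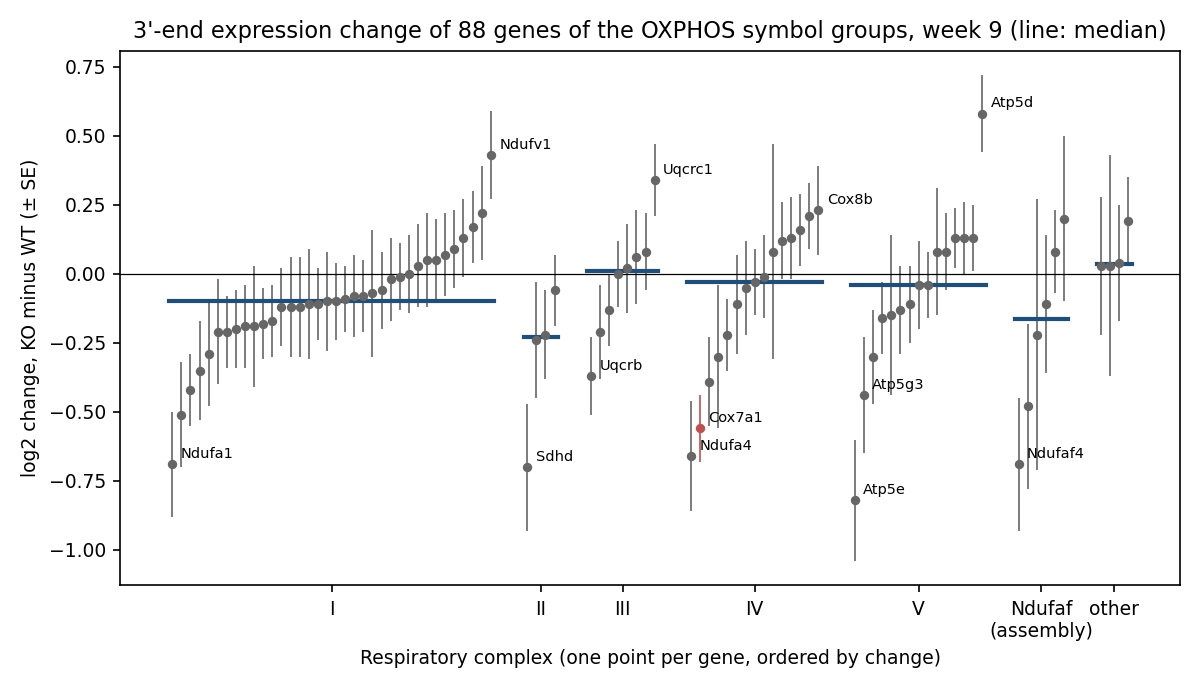
Log2 change of each of the 88 genes (KO minus WT, vertical axis, ± SE, 3 libraries per genotype) at 9 weeks, ordered within its complex, with the median of each complex as a line and the gene that passed the test in red. Only Cox7a1 is red; the values run from -0.82 (Atp5e) to 0.58 (Atp5d), and the medians lie between -0.23 (complex II) and 0.03 (the 4 genes named after subunits).

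The members' changes were small and lay mostly below 0. The log2 change was below 0 for 55 of the 88 members (62.5%), against 44.8% of all genes tested, and its median was -0.08 over the members and 0.07 over all genes. The values of the genotypes did not overlap for 23 members (26.1%, against 23.3% of all genes), of which 16 were lower in the KO (18.2%, against 9.25%) and 7 higher (7.95%, against 14.1%). A log2 change of at least 0.5 was found for 1 member upwards, Atp5d, and for 7 downwards: Atp5e, Sdhd, Ndufa1, Ndufaf4, Ndufa4, Cox7a1 and Ndufs5. Of all 10858 genes tested 2350 changed that far upwards and 1859 downwards, a larger share than among the members in both directions. The background reaches down to a mean of 10 RP10M, where the SE can be much larger (0.93 for Esrrg, against 0.12 for Cox7a1). The shares were not compared at matched levels, so they do not show the members to be more stable. Relative to the WT mean the median over members was -0.15, -0.05 and -0.04 in KO libraries 1, 2 and 3, so KO library 1 held the lowest values. The adenine nucleotide carrier gene Slc25a4 alone took 6.25% to 9.87% of the signal in WT libraries and 5.1% to 5.42% in KO libraries; its part in the scaled values was not tested.

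**Figure D2:**
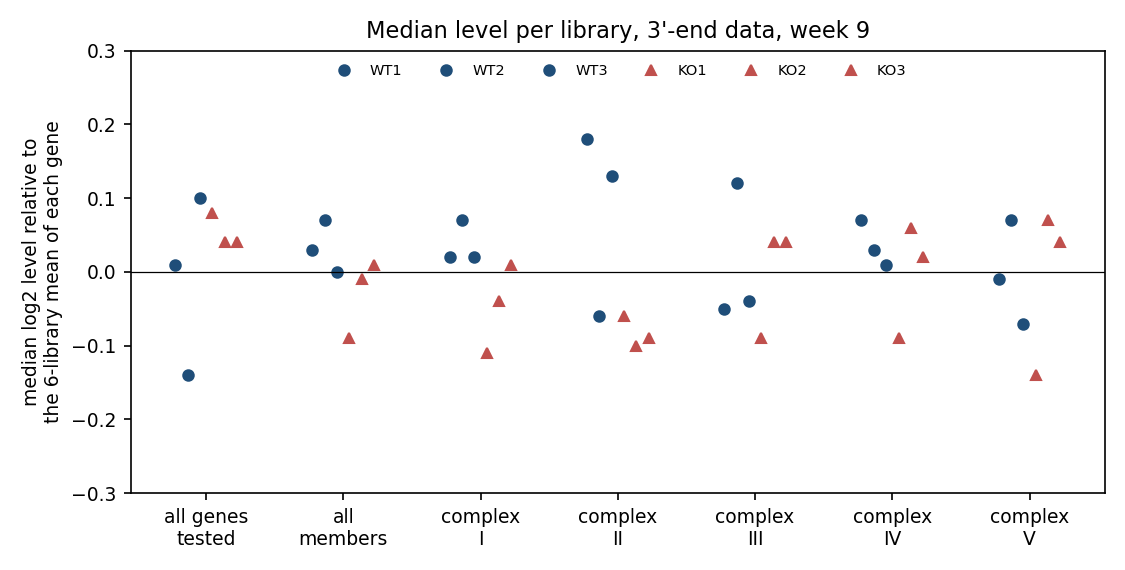
Median over genes of the log2 level relative to each gene's mean over the 6 libraries (vertical axis), for all genes tested, all members and each complex, with WT libraries as circles and KO libraries as triangles. For all members the KO library values (-0.09, -0.01 and 0.01) reach into the WT range (0.00 to 0.07), and for complex II all 3 KO values (-0.06 to -0.10) lie at or below the lowest WT value (-0.06).

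Complex I takes electrons from NADH. None of its 36 members passed. Of them 26 had a log2 change below 0, with a median over all 36 of -0.10 and a range of -0.69 to 0.43. The genotypes did not overlap for 7 members (19.4%, against 23.3% of all genes). Of these 5 were lower (13.9%, against 9.25%) and 2 higher (5.56%, against 14.1%). The lowest was Ndufa1, a small accessory subunit of the membrane arm, at 713.4, 722 and 859.5 RP10M in WT against 526.5, 479.4 and 414.9 in KO (log2 change -0.69, SE 0.19, adjusted p = 0.101). Every KO library was below every WT library. The other accessory subunits without overlap on the lower side were Ndufa6, Ndufa7, Ndufs5 and Ndufs6, with log2 changes of -0.42, -0.35, -0.51 and -0.18. On the higher side stood Ndufv1, the core subunit that binds FMN and oxidises NADH, at 9540.5, 7183.4 and 6824.9 RP10M in WT against 10906.9, 9589.4 and 11026.2 in KO (log2 change 0.43, SE 0.16, adjusted p = 0.191). Its lowest KO library lay just above its highest WT library. The accessory subunit Ndufa9 was the other, at 6356 ± 239 RP10M in WT against 7142 ± 318 in KO (SD, n = 3; log2 change 0.17).

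The highest value of complex I was listed for Ndufa2, an accessory subunit, at 193382, 263311 and 239206 RP10M in WT against 194194, 247728 and 223476 in KO (log2 change -0.06, adjusted p = 0.876), with overlapping genotypes. Ndufb5, Ndufv3 and Ndufv2 followed at 102913 ± 5813, 60765 ± 8100 and 55838 ± 7862 RP10M in WT, and the next, Ndufs8, stood at 19580 ± 2090. For the remaining accessory subunits the log2 changes ran from -0.29 (Ndufab1, the mitochondrial acyl carrier protein) to 0.22 (Ndufa11) with overlapping genotypes.

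Complex II, succinate dehydrogenase, links the citric acid cycle to the chain. All 4 of its members had a log2 change below 0 and none passed. The median was -0.23, moving to -0.36 when WT library 2 was left out and to -0.13 when WT library 3 was. The values for its membrane anchor subunit Sdhd were 645.6, 506.6 and 431.9 RP10M in WT against 396.8, 290.2 and 284 in KO (log2 change -0.70, SE 0.23, adjusted p = 0.152). The other anchor, Sdhc, was at 1597.8, 1270.2 and 1302.9 in WT and 1207.7, 1227.4 and 1122.9 in KO (log2 change -0.22, adjusted p = 0.531). Neither anchor gene overlapped between genotypes, although the gap was narrow in both. The iron-sulfur subunit gene Sdhb was highest in WT library 3, at 16657.1 against 11074.5 and 8808.2 RP10M, and at 9235.1, 9830.1 and 10934 in KO. Its log2 change was -0.24 with all libraries and 0.01 without WT library 3. The flavoprotein Sdha, which holds the succinate site, was at 9426 ± 940 and 9030 ± 154 RP10M (log2 change -0.06), and it too came to 0.01 without that library.

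Complex III passes electrons from ubiquinol to cytochrome c. None of its 8 members passed, 5 changes were above 0 and 3 below, and the median was 0.01. Uqcrc1, a core protein of the matrix side, was at 30909.6, 28045.9 and 25720.8 RP10M in WT against 34754.5, 33682 and 38403.7 in KO (log2 change 0.34, SE 0.13, adjusted p = 0.200). Uqcrb, a small subunit near the ubiquinone site, was at 1984.3, 1946.9 and 1881.1 in WT and 1429.8, 1530.5 and 1541.5 in KO (log2 change -0.37, SE 0.14, adjusted p = 0.221). Both had separate genotypes, in opposite directions. Uqcrfs1, the Rieske iron-sulfur protein, and Uqcrc2 had changes of -0.21 and -0.13, and Uqcr10, Uqcr11, Uqcrh and Uqcrq lay between 0.00 and 0.08, all with overlap. None of 3 chain or ATP synthase subunits with other symbols passed, and Cyc1, which encodes cytochrome c1, was at 8845 ± 1148 RP10M in WT against 12314 ± 969 in KO (log2 change 0.48, adjusted p = 0.126).

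Complex IV, cytochrome c oxidase, held the single call. Cox7a1 was at 30061.8, 28015.1 and 29028.2 RP10M in WT against 20174.5, 18963.7 and 19946.7 in KO, with little spread within either genotype. It fell to 0.678 of the WT mean (log2 change -0.56, SE 0.12, adjusted p = 0.0433 by limma). The call rests close to the threshold: the log2 change ran from -0.53 to -0.59 when any single library was left out, but its adjusted p was then 0.0342 without WT library 3 and 0.0748 to 0.266 without any other, and it was 0.0558 with TMM scaling, 0.0736 without limma's robust setting and 0.0812 with edgeR on the recovered reads. The atrial marker sum was higher in every KO library, as given above, and its part in this result was not tested.

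Its partner Cox7a2 was at 5559.6, 6195.4 and 5543 RP10M in WT against 4868.3, 5049.4 and 4928.6 in KO (log2 change -0.22, SE 0.13, adjusted p = 0.442), also without overlap. The log2 ratio of Cox7a1 to Cox7a2 was 2.43, 2.18 and 2.39 in WT and 2.05, 1.91 and 2.02 in KO. It was 0.34 lower in the KO, with no overlap, which is the most extreme order that 3 against 3 libraries allow (exact two-sided permutation p = 0.1, the smallest possible, and 0.233 adjusted over the 7 pairs). This exact test cannot go below 0.05 with 3 libraries a genotype.

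**Figure D3:**
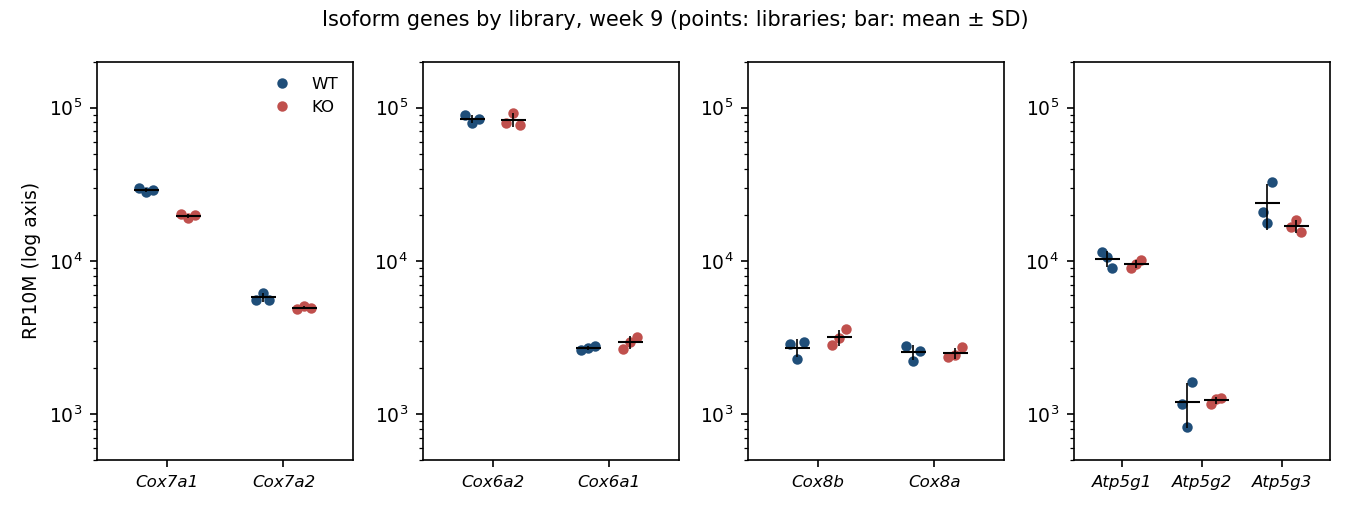
RP10M of isoform genes in each library at 9 weeks (vertical log axis; points are libraries, bars the mean ± SD of 3), WT in blue and KO in red. Of the genes plotted Cox7a1 has the widest gap between genotypes (means of 29035 and 19695), whereas Cox6a2 (84532 against 82980) and Atp5g1 (10330 against 9534) overlap.

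The other muscle isoforms of complex IV did not pass the test. Cox6a2, with the highest listed value of the complex, was at 89324.3, 79947 and 84325 RP10M in WT against 78796.5, 92907.7 and 77235.1 in KO (log2 change -0.03, adjusted p = 0.931), and Cox6a1 was at 2629.9, 2706.9 and 2765.7 in WT and 2660, 2962.1 and 3199.1 in KO. Both genes overlapped between genotypes. Their log2 ratio was 4.97 ± 0.11 in WT and 4.82 ± 0.20 in KO (difference -0.15, exact permutation p = 0.5). Cox8b was at 2863.2, 2290.7 and 2960.2 in WT and 2804.7, 3142.7 and 3571.5 in KO (log2 change 0.23, adjusted p = 0.519). Cox8a was at 2765.6, 2218.3 and 2590.1 in WT and 2340.6, 2420.4 and 2741.8 in KO, and both genes overlapped. The log2 ratio of Cox8b to Cox8a was 0.05, 0.05 and 0.19 in WT and 0.26, 0.38 and 0.38 in KO. That ratio was 0.24 higher without overlap (exact permutation p = 0.1, adjusted 0.233). Cox4i2, an isoform known from lung, was at 46.1, 48.9 and 45 RP10M in WT against 34.9, 53.7 and 64.5 in KO. Its widely expressed partner Cox4i1 was at 38244.6, 37796.8 and 41308.2 in WT and 43091.3, 43282.1 and 49380.1 in KO, without overlap (log2 change 0.21, adjusted p = 0.406). Their ratio overlapped (difference -0.12, exact permutation p = 0.9).

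Among the remaining members of complex IV, Ndufa4 was at 1487.9, 1147.2 and 963 RP10M in WT against 863.4, 698.6 and 685.9 in KO (log2 change -0.66, SE 0.20, adjusted p = 0.130), and of the settings tried it passed only without WT library 3 (log2 change -0.81, adjusted p = 0.0434). Cox7b was at 3677, 3443.3 and 4414.7 in WT and 3149.1, 3003 and 2640.4 in KO (log2 change -0.39, adjusted p = 0.237). Both were lower in every KO library than in any WT library. Cox5a, Cox5b, Cox6b1, Cox6c and Cox7c had changes of -0.11, 0.16, -0.05, 0.13 and -0.30, all with overlap. Over the 15 members of the complex the median change was -0.03, with 6 above 0 and 9 below.

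Cox7c was listed at 171 ± 27 RP10M in WT, far under other small subunits of the complex. Many respiratory chain genes have processed pseudogenes of near-identical sequence in the mouse genome, and how reads that match several places were assigned is not given in the sources used here, so listed values were compared between genotypes and not as amounts between genes. In RefSeq 15 members overlap another protein-coding gene, among them Ndufa1, Ndufa2, Atp5d, Cox7a2 and Cox6a2, and their counts are uncertain in the same way.

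Complex V, the ATP synthase, held both the most positive and the most negative log2 change among all members, in neighbouring subunits of the central stalk, and neither passed. Atp5d, the delta subunit, was at 15005.2, 13333.5 and 11753.1 RP10M in WT against 19737.8, 18331.8 and 21709.5 in KO (log2 change 0.58, SE 0.14, adjusted p = 0.0752). Atp5e, the epsilon subunit, was at 4159.9, 3157.4 and 3676.5 in WT and 2482.8, 2452.7 and 1454.8 in KO (log2 change -0.82, SE 0.22, adjusted p = 0.0994). Every KO library lay beyond the WT range for each, above it for Atp5d and below it for Atp5e, where KO library 3 was the lowest. Atp5e passed with DESeq2 (log2 change -0.84, adjusted p = 0.0187). The gamma subunit gene Atp5c1, the third part of the stalk, was at 10146.8, 10132.7 and 9028.1 RP10M in WT against 10632.5, 10717.9 and 10585.5 in KO (log2 change 0.13, adjusted p = 0.663) with no overlap.

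The genes Atp5a1 and Atp5b, for the alpha and beta subunits of the catalytic head, both had log2 changes of 0.13, and Atp5b did not overlap between genotypes. The highest listed value was for Atp5h of the peripheral stalk, at 32419.2, 35842.6 and 31986.3 RP10M in WT against 29711.5, 34503.2 and 33049.1 in KO (log2 change -0.04), with overlap. Atp5o, which joins the stalk to the catalytic head, and Atp5l of the membrane part were lower without overlap, at -0.16 and -0.30, while Atp5f1, Atp5j, Atp5j2 and Atp5k had changes of -0.04, -0.13, 0.08 and -0.15 with overlap. The median over the 15 members was -0.04.

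The c subunit, of which the membrane rotor ring is built, is encoded by 3 genes that differ in the import signal and give the same mature protein. Atp5g3 was at 20733, 17714.1 and 32570.8 RP10M in WT against 16553.8, 18596.2 and 15455.1 in KO (log2 change -0.44, SE 0.21, adjusted p = 0.312), with WT library 3 far above the rest, and the change was -0.19 without that library. Atp5g1 was at 11459.7, 10548.9 and 8982.1 in WT and 8940.7, 9522.7 and 10137.5 in KO (log2 change -0.11). Atp5g2 was at 1166.4, 826.9 and 1621.8 in WT and 1155.3, 1248.9 and 1281.5 in KO; its log2 change was 0.08, and -0.02 and -0.01 with edgeR and DESeq2, so it has no direction. The log2 ratio of Atp5g2 to Atp5g3 was -4.15, -4.42 and -4.33 in WT and -3.84, -3.90 and -3.59 in KO. Both genes were highest in WT library 3. The ratio was 0.52 higher in the KO without overlap (exact permutation p = 0.1, adjusted 0.233), whereas the ratio of Atp5g1 to Atp5g3 overlapped (difference 0.33, exact permutation p = 0.6, and -0.02 without WT library 3).

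Of the assembly factors among the symbols, which help build complex I and are not part of it, Ndufaf4 was at 585.9, 774.4 and 470.5 RP10M in WT against 426.7, 393.4 and 302.4 in KO (log2 change -0.69, SE 0.24, adjusted p = 0.169), without overlap. The other 5 overlapped, with changes from -0.48 (Ndufaf2) to 0.20 (Ndufaf5). The 4 genes named after subunits had changes of 0.03 to 0.19. Among them Ndufa4l2, a hypoxia-induced relative of Ndufa4, was at 105.8, 117.6 and 282.3 RP10M in WT against 127.3, 227.9 and 129.1 in KO, with WT library 3 the highest. Its log2 ratio to Ndufa4 overlapped (difference 0.69, exact permutation p = 0.4), and the difference ran from 0.27 without WT library 1 to 1.28 without WT library 3, and was 0.37 without KO library 2.

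In the wider pathway lists 2 genes passed the test, both as higher, as did 1.21% of all genes tested. Atpif1, the inhibitor of the ATP synthase, was at 4180.2, 4510.9 and 4126.1 RP10M in WT against 5988.7, 8594.1 and 9462.6 in KO (log2 change 0.88, SE 0.18, adjusted p = 0.0405), with every KO library above every WT library. It was the only call among 26 electron carriers, quinone synthesis genes and inner membrane carriers, whose median change was -0.00. Of these 26, 5 were higher and 5 lower without overlap (19.2% each, against 14.1% and 9.25% of all genes). The lower ones were Etfa, Slc25a4, Ckmt2, Nnt and Etfb, with log2 changes of -1.09, -0.56, -0.53, -0.50 and -0.40. Besides Atpif1, the higher ones were Cyc1, Coq4, Coq3 and Adck3, at 0.48, 0.45, 0.37 and 0.26. Cox19, an assembly factor of complex IV, was at 189.9, 195.4 and 228 in WT and 411.7, 414.9 and 387.2 in KO (log2 change 0.99, SE 0.20, adjusted p = 0.0440). It was the only call among 32 assembly factors, whose median was 0.17 (0.07 over all genes). Of these 32, 7 were higher and 2 lower without overlap (21.9% and 6.25%, against 14.1% and 9.25% of all genes). Atpif1 and Cox19 kept their sign under every alternative tried. Atpif1 missed the threshold with TMM scaling (adjusted p = 0.0691), with edgeR (0.0930), without limma's robust setting (0.0525) and without WT library 1 or 2 or KO library 2 or 3 (0.0640 to 0.266), and Cox19 with edgeR (0.0583), with no filter on low values (0.0589) and without any library but WT library 3 (0.0756 to 0.216). Of 21 regulators of mitochondrial biogenesis none passed, and the median was -0.19. Ppargc1b and Esrra, coactivator and nuclear receptor of respiratory chain genes, stood on opposite sides at -0.93 (adjusted p = 0.108) and 0.67 (adjusted p = 0.176). None of the 13 mitochondrially encoded subunit genes was found among the names in the 3′-end data under its symbol with the prefix mt-. Other spellings were not searched.

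RASL-seq counted 6 splice events of these genes, all of the cassette type, in which the long isoform includes the exon. The events were in Atp5c1, Atp5l, Atp5f1, Sdhc, Atp5s and Ndufv2, and 5 had enough counts in both isoforms to be tested among 2032 events. For Atp5f1 the long isoform had at most 1 count in any library. The share of long-isoform counts changed in the KO in 2 of the 5, Atp5c1 and Ndufv2, each at 2 of the 3 ages by edgeR's quasi-likelihood test. Of all events tested 3.99%, 7.97% and 10.8% passed with a larger long share in the KO at weeks 5, 9 and 18. Because probe pairs can ligate unequally, a share of counts is not a share of molecules.

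The long isoform of Atp5c1 took a larger share in the KO, past the test at weeks 9 and 18. At week 5 the long isoform made up 3.75%, 8.25% and 7.92% of the counts of the event in WT and 9.41%, 11.9% and 15.4% in KO. At week 9 it was 6.7%, 4.37% and 3.53% in WT and 10.7%, 7.98% and 9.4% in KO, and at week 18 it was 1.58%, 2.55% and 3.02% in WT and 10.8%, 9.9% and 10.4% in KO. The genotypes were separate at each age (a larger KO share without overlap was found for 12.6%, 15.5% and 21.4% of all events), and the 3 WT libraries of week 18 lay below every WT library of the younger ages. The log2 change of the isoform ratio was 1.03 at week 5 (adjusted p = 0.0506), 1.07 at week 9 (adjusted p = 0.0321) and 2.28 at week 18 (adjusted p = 4.73e-05). The week 5 value was 0.64 without WT library 1 of that age, and it passed with a filter at a mean of 100 counts (adjusted p = 0.0464) and without WT library 2 or 3 or KO library 1 of week 5, WT library 1 or 3 of week 9 or WT library 1 of week 18 (0.0364 to 0.0485). The week 18 call remained with every library left out in turn, while at week 9 it was lost without any of 5 of the 6 libraries of that age (adjusted p = 0.0510 to 0.175). The change at week 18 exceeded that at week 5 by 1.25 on the log2 scale, which did not pass (adjusted p = 0.254; 0.787% of all events passed this comparison), but it was 1.63 and passed without WT library 1 of week 5 (adjusted p = 0.0475). The total counts of the event did not separate the genotypes, at 387 ± 40, 266 ± 53 and 343 ± 29.8 CPM (event counts scaled to the library total) in WT and 329 ± 110, 290 ± 125 and 319 ± 104 in KO at the 3 ages.

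**Figure D4:**
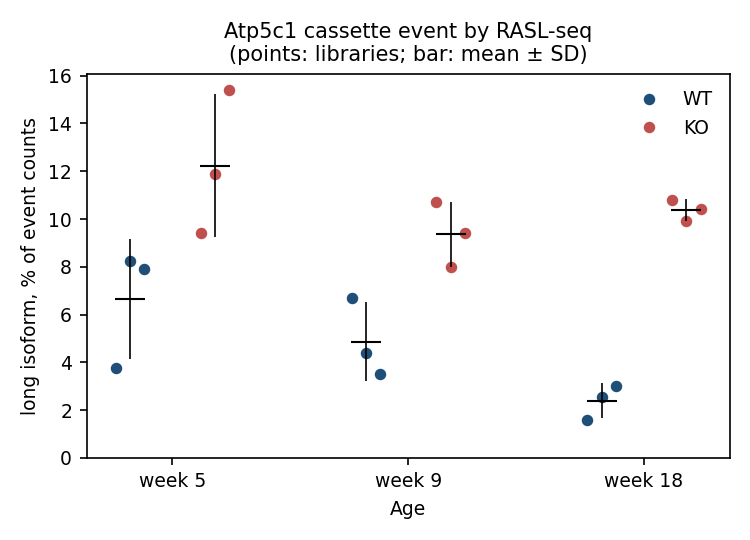
Long-isoform share of the Atp5c1 event (vertical axis, percent of the counts of the event) in each library at weeks 5, 9 and 18, WT in blue and KO in red, with the mean ± SD of 3 libraries. The KO means are 12.2%, 9.35% and 10.4%, and the WT means 6.64%, 4.87% and 2.38%, with no overlap at any age.

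In Ndufv2, a core iron-sulfur subunit of complex I, the long isoform was close to absent in both genotypes. It had 4, 0 and 1 counts in the WT libraries of week 5 and 3, 5 and 16 in the KO libraries, beside 14788 to 52187 counts of the short isoform. At week 9 there were 0, 3 and 0 in WT and 8, 5 and 2 in KO, and at week 18 there were 3, 1 and 2 in WT and 8, 2 and 2 in KO. As shares this was at most 0.0113% in WT and 0.0381% in KO, separate at each age. The log2 change of the ratio was 2.40 at week 5 (adjusted p = 0.0237), 2.75 at week 9 (0.0178) and 1.84 at week 18 (0.0916), and with DESeq2 the first 2 did not pass (0.160 and 0.0937). The week 5 call was also lost without WT library 2 or KO library 3 of that age (0.0922 and 0.182), and the week 9 call without WT library 3 or KO library 1 of that age (0.203 and 0.0929) and with each age fitted alone (0.0653). Week 18 passed with each age fitted alone (0.0330) and without WT library 2 of week 9 (0.0366). With a library left out the week 9 value ran from 1.63 without WT library 3 to 5.59 without WT library 2, the only WT library of that age with a long-isoform count, so the latter has no fixed size. So few counts carry these calls that the size of the change is poorly set.

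The shares of the other 3 tested events did not pass at any age. The long isoform made up 83.7%, 85.8% and 83.2% of the counts in WT and 85.2%, 82.3% and 87.6% in KO for Atp5l at weeks 5, 9 and 18. For Sdhc it was 99.3%, 99.4% and 99.2% in WT and 99.3%, 99.3% and 99% in KO, and for Atp5s it was 3.14%, 3.08% and 4.21% in WT and 5.42%, 3.4% and 5.96% in KO. Of these, the genotypes were separate for Sdhc at week 18 only, by a difference of -0.169 percentage points.

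The totals of the Sdhc and Ndufv2 events, summed over both isoforms, fell in the KO at week 18. Ndufv2 was at 6933, 5515 and 6362 CPM in WT against 5236, 3645 and 3830 in KO (log2 change -0.56, adjusted p = 0.0173), and the genotypes were separate. Its means were 6477 ± 424 and 4890 ± 999 at week 5 and 5828 ± 505 and 4772 ± 583 at week 9, separate as well but not passing (log2 change -0.33 and -0.27, adjusted p = 0.251 and 0.325). Sdhc was at 11128, 6456 and 8527 CPM in WT against 6843, 5544 and 5208 in KO at week 18 (log2 change -0.56, adjusted p = 0.0318), where the lowest WT library lay below the highest KO library. At week 9 it was at 9826, 9328 and 12027 in WT and 9140, 6833 and 6874 in KO (log2 change -0.44, adjusted p = 0.125), separate by a narrow gap, and at week 5 it did not separate (-0.15). Of all events 3.4%, 5.31% and 8.81% passed with a lower total at weeks 5, 9 and 18, and 17.9%, 14.1% and 19.1% were lower without overlap. With single libraries left out the Sdhc value ran from -0.69 to -0.35 and the Ndufv2 value from -0.70 to -0.44. Both calls were lost without WT library 1 or 3 or KO library 2 or 3 of week 18 (adjusted p = 0.102 to 0.230 for Sdhc and 0.0797 to 0.129 for Ndufv2), and the Sdhc call also without WT library 3 or KO library 1 or 2 of week 5 (0.0526 to 0.0586) and with each age fitted alone (0.0916).

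**Figure D5:**
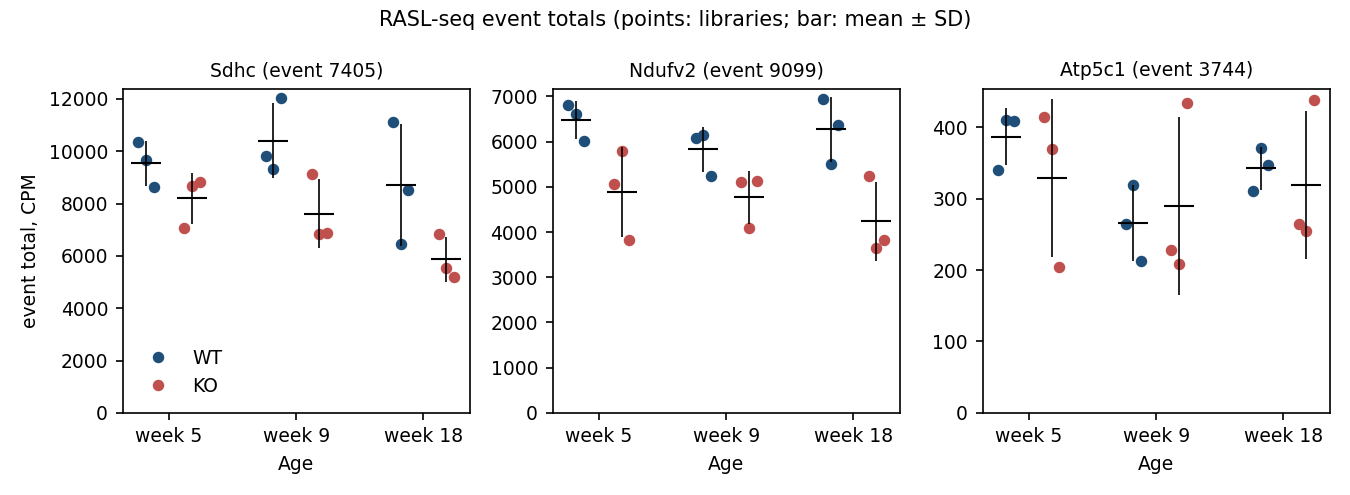
Total counts of the Sdhc, Ndufv2 and Atp5c1 events (vertical axis, CPM) in each library at weeks 5, 9 and 18, WT in blue and KO in red, with the mean ± SD of 3 libraries. The Ndufv2 libraries are separate by genotype at each age, Sdhc at week 9 only, and Atp5c1 at none.

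For neither total did the difference in change between weeks 5 and 18 pass edgeR's test. The interaction was -0.41 for Sdhc (adjusted p = 0.609) and -0.23 for Ndufv2 (adjusted p = 0.807), and 0.591% of all events passed. At week 9 the 3′-end values of these genes, from other libraries, had log2 changes of -0.22 for Sdhc and -0.21 for Ndufv2. Neither passed (adjusted p by limma 0.531 and 0.465), and the genotypes overlapped for Ndufv2. In RefSeq Ndufv2 also overlaps the protein-coding gene Ankrd12. The totals of Atp5l and Atp5s did not pass at any age, with log2 changes from -0.36 to 0.22, and were separate only for Atp5s at week 18 (179 ± 9.06 CPM in WT, 139 ± 26.1 in KO).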

How the data were processed

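Cardiac myocyte RNA was measured by 3′-end RNA sequencing (MAPS in the labels) and by RASL-seq. For 3′-end data the authors deposited scaled signal (RP10M) for each gene, per the file headers. Each column's low values, where 1 decimal can resolve a read, were whole multiples of 1 read (100% within 0.1 reads). Whole reads were recovered from this for all values by rounding, and higher values were not in that check. WT library 2 sums to 9529443.7 in place of 10000000, and no source used here says why. For RASL-seq the authors deposited unscaled counts of both isoforms, per the file headers. Tools named in the submitters' processing notes are Bowtie 0.12.7 and cutadapt 1.2.1, with build mm9; the counting rule is not given in the sources used here. The 2 columns of group averages in the 3′-end table were not used.

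The 3′-end values were tested with limma 3.58.1 (R 4.3.3; trended, robust variances) on log2(RP10M + 1) over the 10858 genes with a mean of at least 10, so fold changes are on that scale. RASL-seq was tested with edgeR 4.0.16 (quasi-likelihood test, TMM) in a fit over all 18 libraries, for 2032 of 3885 events with a mean count of 20 or more, and 1 or more in each isoform. The isoform ratio was fitted with library terms and an isoform-by-group term. P-values were Benjamini-Hochberg adjusted over all genes or events, and a result passed at an adjusted p under 0.05. Isoform pairs were compared as log2 ratios by exact permutation. Without molecular identifiers, PCR copies are counted as if independent. The procedures were tested on simulated data. Alternatives were other pseudocounts, filters and scalings, edgeR and DESeq2 1.42.0 on the recovered reads, each age alone, a replicate block and single libraries left out.

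The members, the pathway lists and the markers were chosen with earlier results of these data known. Values per library are given for members past the threshold, isoform pairs, the highest, most raised and most lowered member of each complex, and further members without overlap, chosen after their values were seen. Samples of other assays were not used here, and 1 member is not reported here.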

Additional observations from a re-analysis of the deposited data

How the results depend on the processing

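With 3 libraries per genotype small changes were not detectable, and a member that missed the threshold is not shown to be unchanged. The number of genes called was 174, against 456 with DESeq2, 338 with a replicate block and 18 to 409 with a library left out (409 without WT library 3). Members called lower were 1, against 0 with TMM scaling, without the robust setting or with edgeR, 3 with DESeq2 (Atp5e, Cox7a1 and Ndufa1) and 0 to 2 with a library left out (Cox7a1 and Ndufa4 without WT library 3, none without any other). Same-numbered WT and KO libraries deviated together with correlations of 0.28, 0.06 and 0.19, against -0.24 to 0.12 for libraries of unlike numbers. Whether the numbers pair the samples is not stated, and the main test left them unpaired. With the replicate block the adjusted p by limma was 0.0273 for Cox7a1 and 0.0254 for Slc25a4, against 0.0433 and 0.0818 in the main test. The median over members was -0.15 with edgeR and with DESeq2, that of complex I -0.18 and -0.17, and that of complex II -0.28 with TMM scaling, -0.32 with edgeR, -0.31 with DESeq2 and -0.36 to -0.13 with a library left out. The median over all genes went from 0.07 to 0.02, -0.03 and -0.02 with TMM scaling, edgeR and DESeq2, so log2 changes of that size have no direction.

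Signs turned for Atp5g2 (-0.02 with edgeR, -0.01 with DESeq2) and Ndufa4l2 (-0.02 with TMM scaling, -0.10 with edgeR and with DESeq2). With a library left out the log2 change ran from -0.16 to 0.32 for Atp5g2, -0.09 to 0.02 for Atp5h, -0.10 to 0.33 for Cox4i2, -0.11 to 0.02 for Cox6a2, -0.10 to 0.06 for Cox8a, -0.19 to 0.04 for Ndufa2, -0.24 to 0.47 for Ndufa4l2, -0.13 to 0.01 for Sdha and -0.45 to 0.01 for Sdhb, and the ratio from -0.25 to 0.09 for Cox4i2 to Cox4i1 and -0.02 to 0.54 for Atp5g1 to Atp5g3. RASL-seq ratio calls at week 5 were 136 with each age fitted alone, against 205, and with a library left out 156 to 212, 216 to 368 and 310 to 414 at weeks 5, 9 and 18; calls on totals were then 107 to 185, 161 to 317 and 270 to 502. For member events the log2 change of the ratio then turned sign for Atp5l at week 5 (-0.25 to 0.46), Sdhc at week 5 (-0.21 to 0.05) and week 9 (-0.21 to 0.13) and Atp5s at week 9 (-0.01 to 0.26). That of the total turned for Atp5c1 at week 5 (-0.36 to 0.11), week 9 (-0.28 to 0.34) and week 18 (-0.35 to 0.08), Atp5s at week 5 (-0.27 to 0.06) and Atp5l at week 9 (-0.11 to 0.45). The causes were not tested.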
